A study of Mus musculus with 6 samples.

Results

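Glutathione, thioredoxin and antioxidant enzymes were followed by RNA sequencing in brown adipose tissue that had lost seipin in its brown adipocytes. The gene group was chosen by symbol. It took every listed gene of the glutathione transferase (Gst and Mgst), glutathione peroxidase (Gpx), peroxiredoxin (Prdx), superoxide dismutase (Sod) and thioredoxin reductase (Txnrd) families. Txn1, Txn2, Txnip, Gclc, Gclm, Gss, Gsr, Cat, Srxn1, Hmox1, Nqo1, Nfe2l2 and Keap1 were added by name. This gave 50 of the 12966 genes in the table. BKO mice (3 libraries) were Bscl2f/f animals that also carried Ucp1Cre, a Cre recombinase driven by the Ucp1 promoter, which is active in brown adipocytes. Ctrl mice (3 libraries) carried the same floxed Bscl2f/f alleles without the Cre. All animals were male C57BL/6J mice, 10 weeks old. Bscl2 encodes seipin, an endoplasmic reticulum protein of lipid droplet assembly. No Cre-only group was analysed here, so an effect of the transgene and loss of seipin cannot be told apart. Whole tissue was sequenced, so fewer cells of a type and less RNA per cell cannot be told apart either.

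Brown fat burns fatty acids in a dense mitochondrial network, which releases superoxide and hydrogen peroxide. Superoxide dismutases turn superoxide into hydrogen peroxide. Catalase splits hydrogen peroxide. The glutathione peroxidases and the peroxiredoxins remove hydrogen peroxide and lipid peroxides, drawing on glutathione or thioredoxin, which are in turn re-reduced at the cost of NADPH. Glutathione transferases couple glutathione to reactive products such as the aldehydes of lipid peroxidation. The transcription factor NRF2 (Nfe2l2), held in check by KEAP1, raises many of these genes under oxidative stress.

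Values are FPKM, fragments scaled for transcript length and library size, and the read depth behind them is unknown. Bscl2 stood at 17.4 ± 1.32 FPKM in BKO and 109 ± 6.05 FPKM in Ctrl (SD, n = 3 each), with p = 0.1 by an exact permutation test, two-sided, the lowest value possible with 3 libraries a group. The 11 brown adipocyte markers summed to between 21274 and 23544 FPKM in BKO and between 20715 and 21556 FPKM in Ctrl. The 21 macrophage markers, all listed and none at 0, summed to between 222 and 291 FPKM in BKO and between 76.3 and 132 FPKM in Ctrl. Of the 19 tested, 4 rose, against 0.158% of all tested genes, and 14 (73.7%) had all BKO libraries above all Ctrl libraries, against 9.06% of all tested genes. Csf1r, Cd14, Aif1, Cd52 and Ptprc overlapped between the groups. Of the markers too low to test, Itgam was higher in every BKO library and Cd163 lower in every BKO library, with 0.329, 0.507 and 0.568 FPKM in BKO and 1.23, 0.780 and 1.10 FPKM in Ctrl. Fibroblast markers (6) summed to between 203 and 222 FPKM in BKO and between 171 and 198 FPKM in Ctrl. Skeletal muscle markers, 13 of 15 listed, summed to between 204 and 515 FPKM in BKO and between 163 and 762 FPKM in Ctrl, and the highest sum was in Ctrl-1. BKO-3 stood apart in the table: it held no value between 0 and 0.486 FPKM, and its FPKM summed to 2808870 against 1119230 to 1617960 in the other 5 libraries. A gene that dropped under that level in BKO-3 may therefore not be listed.

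None of the antioxidant genes passed the test between BKO and Ctrl. Of the 50 genes, 48 averaged 1 FPKM or more across the 6 libraries and entered the test, while Nqo1 and Gstm6 lay below that mean. The test was limma on log2(FPKM + 1), with Benjamini-Hochberg adjustment over all 11397 tested genes at 0.05, and the lowest adjusted p among the antioxidant genes was 0.201, that of Prdx6. Over all tested genes, 0.158% were called higher and 0.00877% lower in BKO, 0.167% in all. At an unadjusted p below 0.05, 3 antioxidant genes were higher (Prdx6, Gss and Hmox1) and 4 lower (Gpx8, Gsta4, Cat and Mgst2), 14.6% of those tested against 10.2% of all tested genes. Their BKO libraries all lay above Ctrl for 5 genes and all below Ctrl for 3 genes, 16.7% of those tested, against 9.06% higher and 6.82% lower, together 15.9%, over all tested genes. That share is near the background. The log2 difference was positive for 27 of the 48 genes, and 51.6% of all tested genes had a positive one. Its median was 0.04 over the 48 genes and 0.01 over all tested genes. The median size of the difference, whatever its sign, was 0.089 for the antioxidant genes and 0.095 over all tested genes. For 38 of the 48 genes the 95% interval of the difference lay within 0.5 on the log2 scale in both directions. That is a change of less than 1.41-fold in FPKM + 1, and for low genes the change in FPKM itself can be larger. Whether the 3 libraries of a group are 3 animals is not stated in the labels; if they are not, the p-values reflect technical spread alone.

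**Figure D1:**
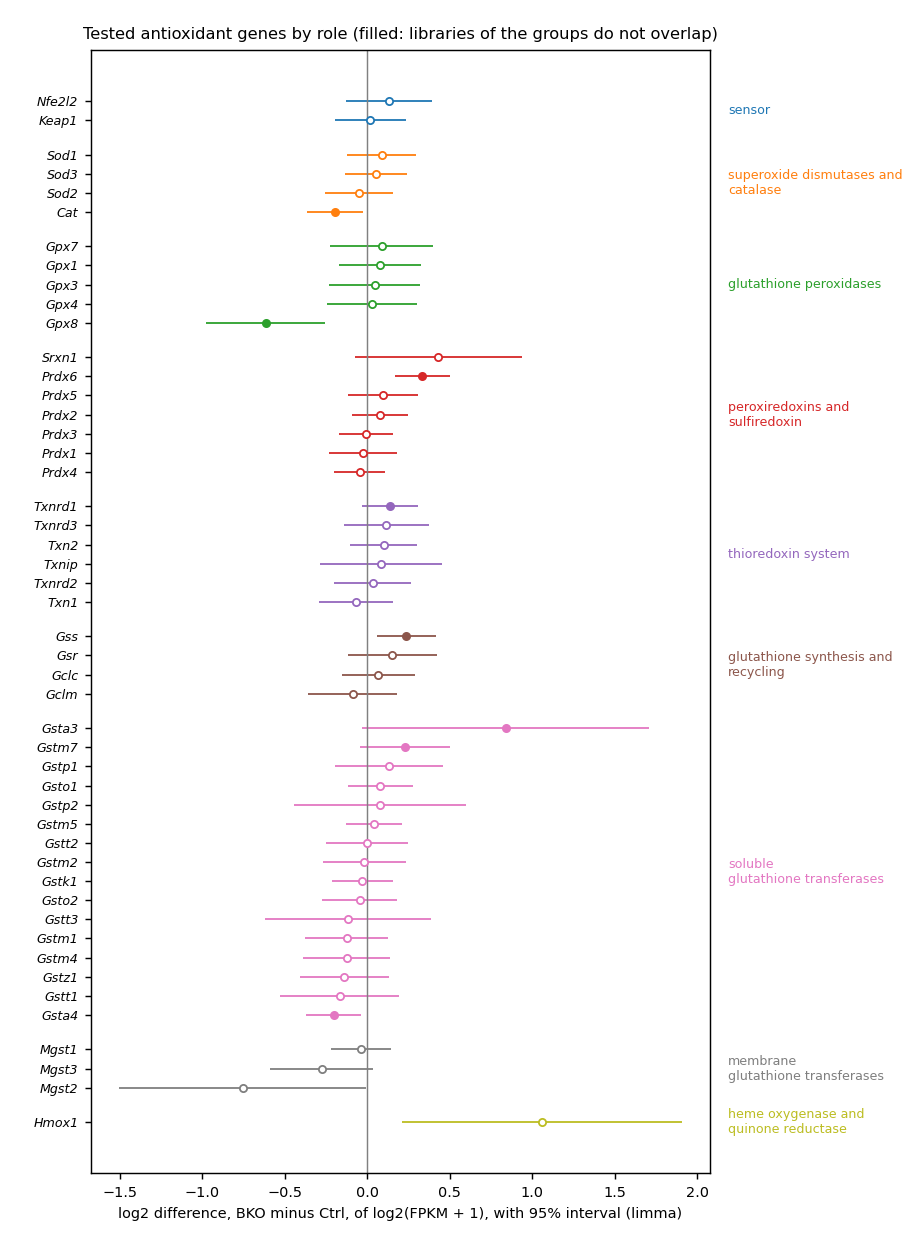
Each point is the log2 difference, BKO minus Ctrl, of log2(FPKM + 1) for one of the 48 tested genes, on the horizontal axis, with its 95% interval from limma; genes are grouped and coloured by role, and filled points mark genes whose BKO and Ctrl libraries do not overlap (3 libraries each). Most points lie close to 0. The intervals of Prdx6 (0.33), Gss and Hmox1 lie above 0, and those of Gpx8 (-0.62), Gsta4, Cat and Mgst2 below 0. They are not adjusted for the number of genes tested.

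Many of the listed genes are abundant in this tissue, although 13 of the 50 averaged under 10 FPKM. A mean of 100 FPKM or more over the 6 libraries was reached by 16 of the 50 genes, and of 10 FPKM or more by 37. By mean level, 17 of them ranked among the top 5% of all 12966 listed genes. The most abundant were Gpx3 at 1145 FPKM and Gpx4 at 1070 FPKM. In sum the 50 genes amounted to 6980 ± 298 FPKM in BKO and 6873 ± 292 FPKM in Ctrl (SD, n = 3 each), and the groups overlapped. No antioxidant gene was listed at 0 in any library, but scarcer members of these families may not be listed at all.

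**Figure D2:**
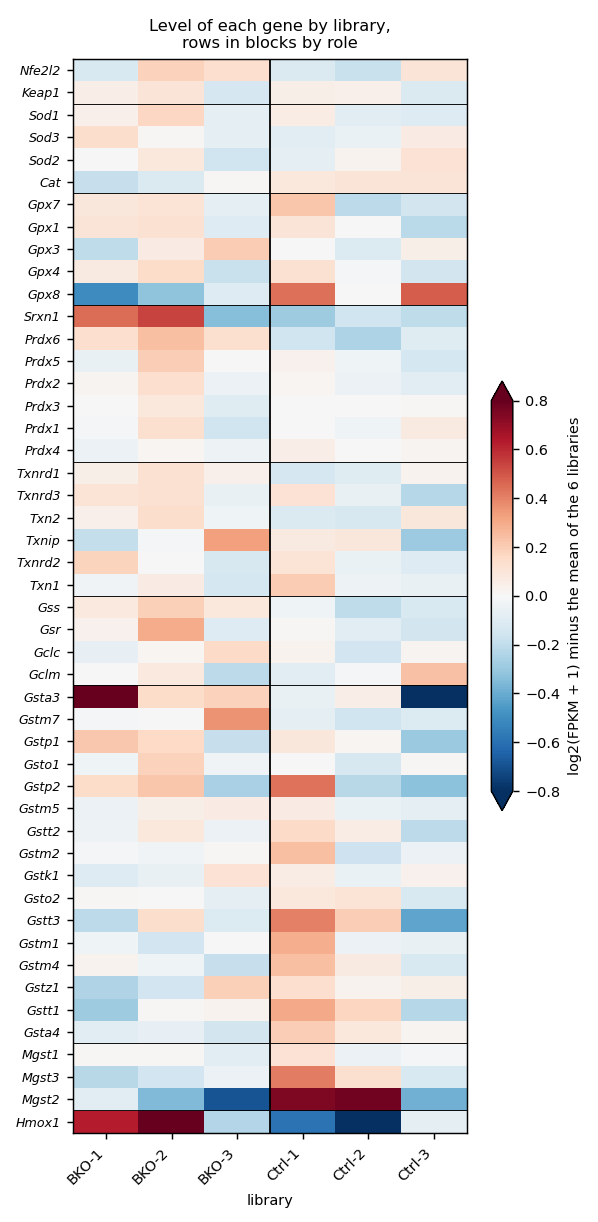
Colour shows, for each of the 48 tested genes (rows, in blocks by role) and each library (columns, BKO-1 to BKO-3 left of Ctrl-1 to Ctrl-3), log2(FPKM + 1) minus the gene's mean over the 6 libraries, with colours capped at 0.8 in either direction. Hmox1 and Srxn1 are high in BKO-1 and BKO-2 and not in BKO-3, whereas Gpx8 is lower in all 3 BKO libraries than in any Ctrl library.

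The sensor pair came first among the regulators. Nfe2l2, which encodes NRF2, had 30.0, 37.4 and 36.1 FPKM in BKO libraries 1 to 3, against 30.1, 28.8 and 35.2 FPKM in Ctrl libraries 1 to 3. The groups overlapped (difference 0.13 on the log2 scale, 95% interval -0.13 to 0.39). Keap1, its inhibitor, stood at 11.7 ± 1.07 FPKM in BKO and 11.5 ± 0.789 FPKM in Ctrl (SD, n = 3 each), also overlapping (difference 0.02, 95% interval -0.20 to 0.23). Levels of mRNA do not report NRF2 activity, which is set mainly by protein stability.

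The peroxiredoxins held the antioxidant gene with the lowest p. Prdx6, a peroxidase of the cytosol that reduces oxidised phospholipids with glutathione and also has phospholipase activity, had 141, 152 and 140.4 FPKM in BKO, against 115, 108 and 119.9 FPKM in Ctrl. Every BKO library lay above every Ctrl library, and the means were 144 ± 6.47 and 114 ± 5.88 FPKM (SD, n = 3 each), a ratio of 1.26. The log2 difference was 0.33 (SE 0.0702, limma with Benjamini-Hochberg adjusted p = 0.201), so the gene did not pass. It was 0.29 to 0.37 when any 1 library was left out. Prdx6 made up 12.5 ± 0.438% of the summed FPKM of the peroxiredoxins and sulfiredoxin in BKO and 10.4 ± 0.507% in Ctrl (SD, n = 3 each).

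The other 5 peroxiredoxins lay close together in BKO and Ctrl. Prdx5, found in mitochondria, peroxisomes and cytosol, was the most abundant, with 314, 377 and 329 FPKM in BKO and 336, 319.8 and 298 FPKM in Ctrl. Prdx3, the peroxiredoxin of the mitochondrial matrix, had 263, 279 and 247 FPKM in BKO and 263, 264 and 266 FPKM in Ctrl. Prdx1, a cytosolic enzyme, had 263, 290.3 and 237 FPKM in BKO and 265, 259 and 279 FPKM in Ctrl. The groups overlapped for all of these. Prdx2, another cytosolic enzyme that is also abundant in red cells, had 111, 121 and 106 FPKM in BKO and 111, 106 and 103 FPKM in Ctrl. Prdx4, the form of the endoplasmic reticulum, was the scarcest, with 10.2 ± 0.282 FPKM in BKO and 10.6 ± 0.210 FPKM in Ctrl (SD, n = 3 each). The log2 differences of these 5 ran from -0.05 for Prdx4 to 0.10 for Prdx5.

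Srxn1 encodes sulfiredoxin, which repairs peroxiredoxins that have been over-oxidised by peroxide, and is a known NRF2 and AP-1 target. It had 27.7, 29.6 and 15.6 FPKM in BKO libraries 1 to 3, against 16.3, 17.8 and 17.3 FPKM in Ctrl. BKO-1 and BKO-2 lay well above all Ctrl libraries, while BKO-3 lay below all of them. With all libraries the log2 difference was 0.43 (SE 0.217, limma with Benjamini-Hochberg adjusted p = 0.564). Without BKO-3 it was 0.71 and passed, at an adjusted p of 0.0404, and over the other libraries left out in turn it ran from 0.27 upward with adjusted p up to 0.854. Srxn1 was the single antioxidant gene that passed in any of the 17 alternatives. The macrophage markers summed to 291, 256 and 222 FPKM in BKO libraries 1 to 3 and to 132, 86.8 and 76.3 FPKM in Ctrl libraries 1 to 3. BKO-3 had the lowest of the BKO sums, above that of every Ctrl library. The part of macrophages in the Srxn1 level was not tested.

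The promoters below are shown because NRF2 acts through the antioxidant response element, and because Srxn1, Gss and Gpx8 are among the genes with the larger differences, while Prdx1 and Txnrd1 are known NRF2 targets with small differences. Each is the 250 bases before the annotated start in RefSeq on GRCm38.p6, another build than the authors used. Capitals mark matches to TGACNNNGC, the core of the antioxidant response element, or to TGANTCA, the AP-1 site, on either strand. The AP-1 site was searched after the values had been seen, and matches to both motifs can overlap, as TGACTCAGC holds both. The Srxn1 promoter is at chr2:152105274-152105523, plus strand, that of Prdx1 at chr4:116685349-116685598, plus strand, that of Txnrd1 at chr10:82858956-82859205, plus strand (the start, of 3 annotated, whose promoter holds the element), that of Gss at chr2:155592811-155593060, minus strand, and that of Gpx8 at chr13:113046389-113046638, minus strand.
Srxn1: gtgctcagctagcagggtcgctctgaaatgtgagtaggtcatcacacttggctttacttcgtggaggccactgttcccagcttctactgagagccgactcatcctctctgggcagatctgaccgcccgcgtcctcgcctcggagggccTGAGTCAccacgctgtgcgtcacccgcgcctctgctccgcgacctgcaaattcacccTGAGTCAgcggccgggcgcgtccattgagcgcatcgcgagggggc
Prdx1: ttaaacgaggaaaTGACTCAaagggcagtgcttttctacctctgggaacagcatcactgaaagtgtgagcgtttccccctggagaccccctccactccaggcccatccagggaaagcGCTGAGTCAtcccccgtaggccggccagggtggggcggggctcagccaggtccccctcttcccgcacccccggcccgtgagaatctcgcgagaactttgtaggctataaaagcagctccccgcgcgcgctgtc
Txnrd1: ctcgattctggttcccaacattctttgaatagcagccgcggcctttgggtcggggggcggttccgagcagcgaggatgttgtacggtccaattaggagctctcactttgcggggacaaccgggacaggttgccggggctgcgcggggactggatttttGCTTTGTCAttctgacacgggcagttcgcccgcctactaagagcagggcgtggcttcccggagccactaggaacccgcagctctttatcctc
Gss: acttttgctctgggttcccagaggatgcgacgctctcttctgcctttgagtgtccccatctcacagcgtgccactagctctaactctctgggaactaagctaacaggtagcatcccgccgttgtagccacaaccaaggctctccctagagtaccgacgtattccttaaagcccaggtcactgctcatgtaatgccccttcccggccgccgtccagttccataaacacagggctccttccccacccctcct
Gpx8: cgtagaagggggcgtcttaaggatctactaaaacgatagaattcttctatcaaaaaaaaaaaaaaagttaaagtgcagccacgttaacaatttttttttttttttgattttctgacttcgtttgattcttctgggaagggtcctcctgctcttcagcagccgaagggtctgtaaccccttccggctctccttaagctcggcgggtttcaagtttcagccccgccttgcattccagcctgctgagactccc

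The Srxn1 promoter held 2 AP-1 sites, whose first bases were 102 and 45 bases before the start. It held no TGACNNNGC in the printed stretch, though 1 began 28 bases after the start. The site 45 bases before the start continues as TGAGTCAGC, with G where the searched core has C. The search for the element therefore did not count it, and lack of a match there does not show that an element is lacking. In the Prdx1 promoter an antioxidant response element began 133 bases before the start and overlapped an AP-1 site, and a second AP-1 site began 237 bases before the start. The printed Txnrd1 promoter held 1 element, 92 bases before the start, and those of Gss and Gpx8 held neither motif. Prdx1, with the element, had a log2 difference of -0.03, and Txnrd1 one of 0.14. RefSeq promoters, from 250 bases before to 50 after each start, were found for 43 of the 50 genes. No promoter was at hand for Prdx6, Hmox1, Gclc, Gsr, Gsta4, Gstt2 and Sod3, so these could not be searched. The element was present in a promoter of 10 of the 43 genes (23.3%), against 17.6% of the 7765 tested genes with a promoter and 14% of all 27025 genes in the RefSeq table. The AP-1 site was present for 6 of the 43 genes (Srxn1, Mgst2, Gstm5, Prdx1, Gstp1 and Gstp2), 14% of those with a promoter, against 5.92% of tested genes and 8.97% of all genes in the RefSeq table. These are matches of letters in a short window, and no binding was measured.

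Hmox1 and Nqo1 are the textbook NRF2 reporters. Hmox1, heme oxygenase, which is also strongly expressed by macrophages, had 13.3, 20.2 and 6.88 FPKM in BKO libraries 1 to 3, against 5.16, 3.91 and 7.76 FPKM in Ctrl libraries 1 to 3. BKO-1 and BKO-2 were the highest libraries, and BKO-3 lay below Ctrl-3. The means were 13.4 ± 6.65 FPKM in BKO and 5.61 ± 1.96 FPKM in Ctrl (SD, n = 3 each), a ratio of 2.40. Its log2 difference of 1.06 (SE 0.362, limma with Benjamini-Hochberg adjusted p = 0.409) was the largest in size among the 48 genes. Without BKO-3 the difference was 1.44 and without BKO-2 0.72, and neither passed. The summed macrophage marker level was higher in every BKO library than in any Ctrl library, and the part of macrophages in the Hmox1 level was not tested. Nqo1, a quinone reductase, was near the bottom of the table, with 0.915, 1.28 and 0.766 FPKM in BKO and 1.26, 1.08 and 0.400 FPKM in Ctrl. It was not tested, and the groups overlapped.

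**Figure D3:**
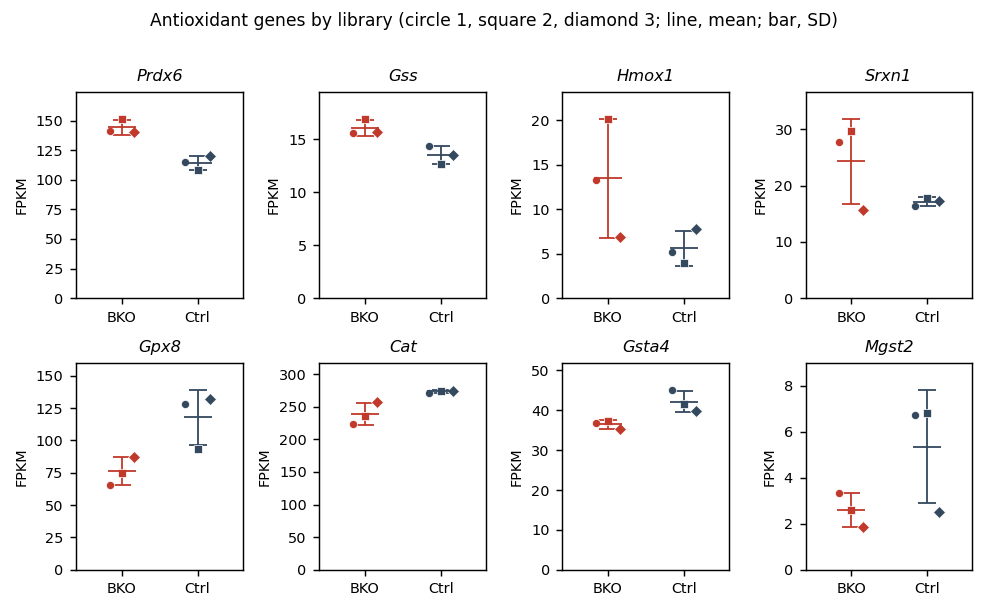
Each panel gives FPKM, on an axis from 0, of one antioxidant gene in the BKO libraries (left, red) and the Ctrl libraries (right, dark), with the mean and SD of 3 libraries. Prdx6 and Gss are higher in every BKO library and Gpx8, Cat and Gsta4 lower in every BKO library, with no gene past the adjusted threshold; Hmox1, Srxn1 and Mgst2 overlap.

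Among the glutathione peroxidases, Gpx8 differed most. It encodes a peroxidase of the endoplasmic reticulum membrane that carries cysteine in place of selenocysteine. Gpx8 had 65.9, 75.0 and 87.5 FPKM in BKO, against 128, 93.7 and 132 FPKM in Ctrl. Every BKO library lay below every Ctrl library, although BKO-3 and Ctrl-2 were close. Means were 76.1 ± 10.8 FPKM in BKO and 118 ± 21.0 FPKM in Ctrl (SD, n = 3 each), so BKO stood at 64.6% of Ctrl. The log2 difference was -0.62 (SE 0.155, limma with Benjamini-Hochberg adjusted p = 0.261), and it ran from -0.77 to -0.52 when any 1 library was left out. Gpx8 made up 2.86 ± 0.385% of the summed glutathione peroxidase FPKM in BKO and 4.49 ± 0.738% in Ctrl (SD, n = 3 each).

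The other peroxidases of this family overlapped between the groups. Gpx3, the secreted plasma form, had 992, 1193 and 1314 FPKM in BKO and 1138, 1056 and 1179 FPKM in Ctrl. Gpx4, which reduces phospholipid hydroperoxides in membranes and thereby opposes ferroptosis, had 1122, 1180.1 and 942 FPKM in BKO and 1159, 1054 and 962 FPKM in Ctrl. Its difference was 0.03 on the log2 scale (95% interval -0.24 to 0.30). Gpx1, the main cytosolic form, had 346, 351 and 301 FPKM in BKO and 346, 323 and 278 FPKM in Ctrl. These 3 abundant members are selenoproteins. Gpx7, a second cysteine form of the endoplasmic reticulum, was low at 3.31 ± 0.294 FPKM in BKO and 3.09 ± 0.686 FPKM in Ctrl (SD, n = 3 each), and unlike Gpx8 its difference was positive, at 0.09 (95% interval -0.23 to 0.40).

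Catalase and the superoxide dismutases differed little. Cat, the hydrogen peroxide-splitting enzyme of peroxisomes, had 224, 235 and 257 FPKM in BKO, against 271, 274 and 275 FPKM in Ctrl. All BKO libraries lay below the narrow Ctrl range, and BKO stood at 87.3% of Ctrl. The log2 difference was -0.20 (SE 0.0723, limma with Benjamini-Hochberg adjusted p = 0.426). Sod1, the copper-zinc enzyme of the cytosol, had 531, 579 and 492 FPKM in BKO and 539, 486 and 481 FPKM in Ctrl. Sod2, the manganese enzyme of mitochondria, had 193, 205 and 173 FPKM in BKO and 184, 197 and 209 FPKM in Ctrl, and the groups overlapped for both. The secreted form Sod3 had 34.9 ± 2.62 FPKM in BKO and 33.6 ± 1.94 FPKM in Ctrl (SD, n = 3 each). The 95% intervals of the 3 dismutases lay between -0.25 and 0.30 on the log2 scale.

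Of the 4 genes that make and recycle glutathione, Gss separated the groups. Gss, glutathione synthetase, which carries out the last step of synthesis, had 15.6, 17.0 and 15.7 FPKM in BKO, against 14.4, 12.7 and 13.5 FPKM in Ctrl. Every BKO library was higher, at a ratio of means of 1.19. The log2 difference was 0.24 (SE 0.0763, limma with Benjamini-Hochberg adjusted p = 0.374). The rate-limiting step before it is carried out by glutamate-cysteine ligase, whose catalytic subunit Gclc had 5.76, 6.17 and 6.88 FPKM in BKO and 6.24, 5.39 and 6.21 FPKM in Ctrl. Its modifier subunit Gclm had 13.3, 14.1 and 11.4 FPKM in BKO and 12.5, 13.2 and 15.8 FPKM in Ctrl. Neither subunit separated the groups, with differences of 0.07 and -0.09. Gsr, glutathione reductase, had 9.28, 11.3 and 8.31 FPKM in BKO and 9.08, 8.41 and 8.04 FPKM in Ctrl, overlapping with BKO-2 highest.

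In the thioredoxin system the differences were small. Txnrd1, the cytosolic thioredoxin reductase, a selenoprotein, had 22.3, 23.5 and 22.2 FPKM in BKO and 19.5, 20.1 and 22.1 FPKM in Ctrl. Its groups did not overlap, but the gap between BKO-3 and Ctrl-3 was narrow, and the difference was 0.14 (95% interval -0.03 to 0.31). Txnrd2, the mitochondrial form, had 31.4, 27.5 and 25.2 FPKM in BKO and 29.8, 26.5 and 25.6 FPKM in Ctrl. Txnrd3, the form known from testis, had 5.53 ± 0.444 FPKM in BKO and 5.05 ± 0.718 FPKM in Ctrl (SD, n = 3 each). Both overlapped. Txn1, cytosolic thioredoxin, had 127, 136 and 118 FPKM in BKO and 149, 126 and 125 FPKM in Ctrl. Txn2, mitochondrial thioredoxin, was the more abundant, with 196, 211 and 187 FPKM in BKO and 176, 175 and 204 FPKM in Ctrl. Txnip, a thioredoxin-binding protein that responds to glucose, varied most between libraries, with 449.8, 507 and 645 FPKM in BKO and 539.9, 547 and 420.1 FPKM in Ctrl. Its difference of 0.08 had a 95% interval of -0.29 to 0.45.

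The 17 soluble glutathione transferases, from the alpha, kappa, mu, omega, pi, theta and zeta classes, scattered around 0. Of the 16 tested, 10 had a negative and 6 a positive log2 difference, and the median was -0.02. Gsta4, which conjugates the lipid peroxidation product hydroxynonenal, had 36.7, 37.4 and 35.3 FPKM in BKO, against 45.1, 41.6 and 39.8 FPKM in Ctrl. All BKO libraries were lower, at 86.5% of Ctrl (log2 difference -0.20, SE 0.0708, limma with Benjamini-Hochberg adjusted p = 0.414). Gsta3, another alpha-class enzyme, had 5.80, 2.96 and 3.06 FPKM in BKO, against 2.43, 2.72 and 0.503 FPKM in Ctrl. The groups did not overlap, but BKO-1 and Ctrl-3 stood apart within their groups, and the difference of 0.84 was 0.42 without Ctrl-3. Gstm7 had 4.87, 4.94 and 6.61 FPKM in BKO and 4.62, 4.32 and 4.49 FPKM in Ctrl, with all BKO libraries higher, a difference of 0.23, and 0.11 without BKO-3. The reads of the Gstm, Gstp and Gstt genes, which lie in clusters of similar copies, may have been split between copies, so their values are uncertain.

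The most abundant soluble transferase was Gstz1, which also takes part in tyrosine breakdown, with 118, 125 and 159.8 FPKM in BKO and 154, 142 and 145 FPKM in Ctrl. BKO-1 and BKO-2 were lower than all Ctrl libraries and BKO-3 higher. Gsto1, an omega-class enzyme, followed with 82.4, 96.1 and 82.7 FPKM in BKO and 84.3, 77.2 and 85.2 FPKM in Ctrl. Gstm1 had 63.5 ± 3.46 FPKM in BKO and 69.8 ± 10.2 FPKM in Ctrl (SD, n = 3 each), where Ctrl-1 held the highest value of 81.5 FPKM. Ctrl-1 was the library richest in muscle transcripts. It also had the highest sum of erythroid markers, 678 FPKM against 426 to 580 FPKM in the other libraries (5 of 7 markers listed). The part of muscle or red cells in that Gstm1 value was not tested. Gstp1, the pi-class enzyme, had 50.3 ± 7.36 FPKM in BKO and 45.9 ± 6.38 FPKM in Ctrl (SD, n = 3 each). Gstm6 had 1.11 ± 0.154 FPKM in BKO and 0.757 ± 0.328 FPKM in Ctrl (SD, n = 3 each), and was not tested. The remaining soluble transferases (Gstk1, Gstm2, Gstm4, Gstm5, Gsto2, Gstp2, Gstt1, Gstt2 and Gstt3) overlapped between the groups, with differences from -0.17 for Gstt1 to 0.08 for Gstp2.

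All 3 membrane-bound transferases had negative differences with all libraries, although that of Mgst1 was 0.01 without Ctrl-1, the library with the highest muscle and erythroid marker sums. Mgst1, a microsomal and mitochondrial outer membrane enzyme, was by far the most abundant, with 598, 599 and 559.6 FPKM in BKO and 644, 575 and 588 FPKM in Ctrl, and its groups overlapped (difference -0.04, 95% interval -0.22 to 0.14). Mgst2, which can form leukotriene C4, had 3.32, 2.60 and 1.84 FPKM in BKO, against 6.72, 6.83 and 2.52 FPKM in Ctrl. Ctrl-1 and Ctrl-2 lay well above the BKO libraries, while Ctrl-3 lay among them. The log2 difference of -0.76 (SE 0.319, limma with Benjamini-Hochberg adjusted p = 0.489) was -1.14 without Ctrl-3. Mgst3 had 23.8, 25.0 and 26.9 FPKM in BKO and 37.3, 30.6 and 25.4 FPKM in Ctrl, with Ctrl-3 inside the BKO range and a difference of -0.28. Without Ctrl-1, the highest library, the Mgst3 difference was -0.14, and without Ctrl-3 it was -0.41.

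Genes that feed the system were examined in 4 further lists, in which 1 gene passed the test. These lists were written with earlier results of these data known. Their counts and shares are therefore descriptions, and the background beside them is no test of the lists. Among the glutathione supply and turnover genes, 19 of 26 written were listed and 18 tested; 1 rose (background 0.158%), 0 fell (background 0.00877%) and 17 did not pass. The median log2 difference was 0.05. The one that rose was Dpep1, a membrane dipeptidase that cleaves cysteinyl-glycine from glutathione breakdown. It had 19.3, 20.3 and 18.5 FPKM in BKO, against 10.4, 10.5 and 12.7 FPKM in Ctrl, without overlap (log2 difference 0.74, SE 0.0927, limma with Benjamini-Hochberg adjusted p = 0.0439). The call was lost with any 1 library left out except Ctrl-3, with adjusted p from 0.0330 to 0.241 by limma, with median ratio or quantile rescaling (0.0611 and 0.0813), without the intensity trend (0.0546) and with the muscle marker level as a covariate (0.082). Chac2, which breaks glutathione down in the cytosol, had 5.81, 5.97 and 6.20 FPKM in BKO and 6.93, 7.89 and 7.66 FPKM in Ctrl (difference -0.28, adjusted p = 0.313 by limma). Anpep, an aminopeptidase that myeloid cells also carry, had 2.86, 2.02 and 2.16 FPKM in BKO and 1.57, 1.12 and 1.19 FPKM in Ctrl (difference 0.54, adjusted p = 0.248 by limma). Neither overlapped and neither passed. The most abundant of the list were Hagh, at 82.8 ± 4.80 FPKM in BKO and 77.3 ± 4.56 FPKM in Ctrl, and Oplah, at 72.7 ± 3.52 and 69.5 ± 3.70 FPKM in BKO and Ctrl (SD, n = 3 each), and both overlapped.

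None of the 16 tested NADPH supply genes passed, and 4 had all BKO libraries higher and 6 all lower, 25% and 37.5% of those tested, against the background of 9.06% and 6.82%. The median log2 difference was -0.09. Tkt, transketolase of the non-oxidative pentose phosphate pathway, had 554, 474 and 377 FPKM in BKO, against 789, 743 and 601 FPKM in Ctrl. BKO stood at 65.8% of Ctrl (log2 difference -0.61, SE 0.161, limma with Benjamini-Hochberg adjusted p = 0.281). Taldo1, transaldolase of the same branch, had 477, 467 and 373 FPKM in BKO and 544, 519 and 507 FPKM in Ctrl (difference -0.26, adjusted p = 0.473 by limma), and without BKO-3 its difference was -0.15. Me1, cytosolic malic enzyme, which supplies NADPH for lipogenesis, had 169, 126 and 87.1 FPKM in BKO and 267, 205 and 172 FPKM in Ctrl. It did not overlap, but BKO-1 lay just below Ctrl-3, and its difference of -0.78 (adjusted p = 0.374 by limma) was -0.53 without BKO-3.

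The NADPH-forming dehydrogenases of the oxidative pentose phosphate branch overlapped between the groups. G6pdx had 49.4 ± 6.84 FPKM in BKO and 54.7 ± 4.57 FPKM in Ctrl, and Pgd 106 ± 29.7 FPKM in BKO and 118 ± 14.5 FPKM in Ctrl (SD, n = 3 each); both were named after their values had been seen. Idh2, the mitochondrial NADP-dependent isocitrate dehydrogenase, went the other way from Tkt and Me1, with 154, 158 and 170.0 FPKM in BKO and 142, 135 and 129.6 FPKM in Ctrl (difference 0.24, adjusted p = 0.329 by limma). Among the folate enzymes, Aldh1l1 had 19.9 ± 1.33 FPKM in BKO and 16.6 ± 1.43 FPKM in Ctrl, and Mthfd1 had 6.06 ± 0.318 FPKM in BKO and 7.31 ± 0.449 FPKM in Ctrl (SD, n = 3 each). Mthfd2, a mitochondrial folate enzyme, had 3.21, 3.99 and 1.04 FPKM in BKO libraries 1 to 3 and 1.02, 0.625 and 0.817 FPKM in Ctrl, so BKO-3 lay close to Ctrl. Without BKO-3 Mthfd2 passed (difference 1.34, limma with Benjamini-Hochberg adjusted p = 0.0374), as against 0.95 with all libraries. Nnt, the mitochondrial transhydrogenase that C57BL/6J mice carry in a deleted form, was low, with 0.848, 0.882 and 0.766 FPKM in BKO and 0.774, 0.617 and 0.646 FPKM in Ctrl, and was not tested.

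**Figure D4:**
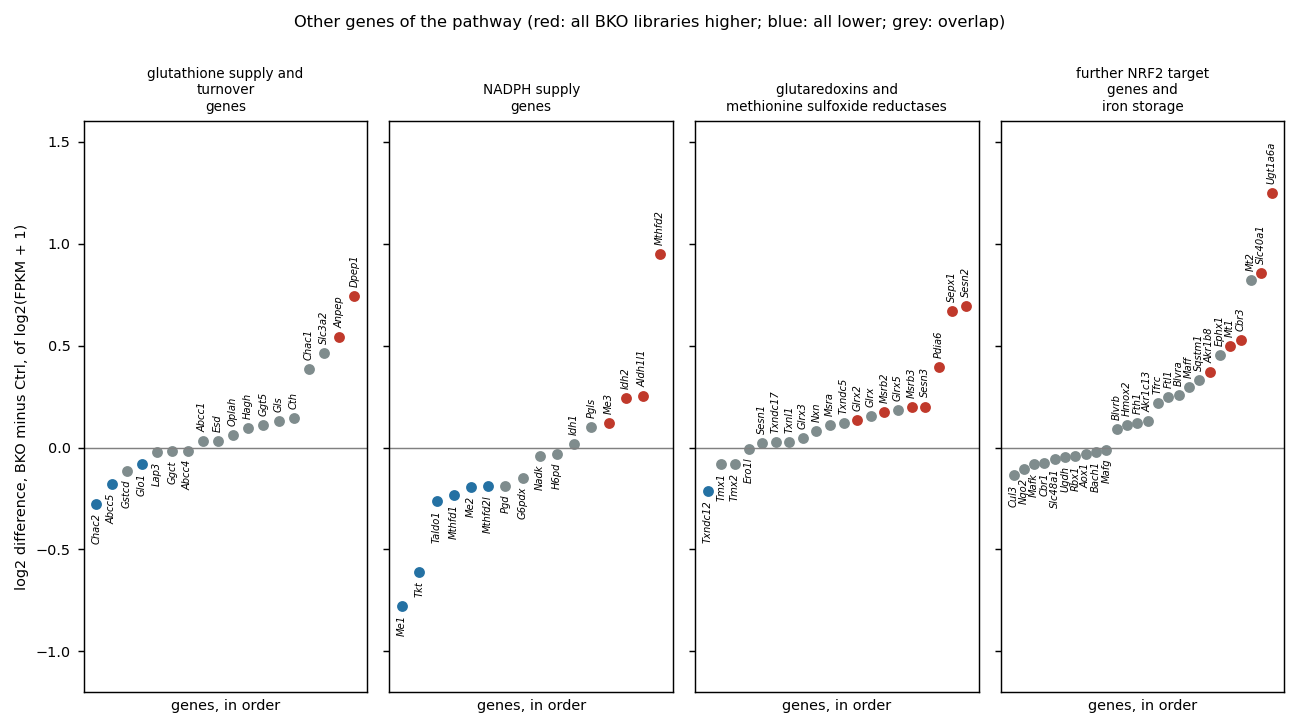
Each panel is a list of neighbouring pathway genes, ordered by the log2 difference, BKO minus Ctrl, of log2(FPKM + 1) on the vertical axis; red and blue mark genes whose 3 BKO libraries are all above or all below the 3 Ctrl libraries. Dpep1 passed the test and no other gene in these panels did; the NADPH list runs from -0.78 for Me1 to 0.95 for Mthfd2.

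Among the 20 glutaredoxins, methionine sulfoxide reductases, sestrins and thioredoxin-like genes, none passed. A positive difference was found for 16 (background 51.6%), and the median was 0.11. All BKO libraries were higher for 7 genes (35% of those tested, background 9.06%) and lower for 1 (5%, background 6.82%). Sesn2, a stress-induced sestrin that is also a target of ATF4 and p53, had 11.8, 14.9 and 14.0 FPKM in BKO, against 7.86, 7.92 and 8.10 FPKM in Ctrl (log2 difference 0.69, SE 0.0952, limma with Benjamini-Hochberg adjusted p = 0.0568). Sepx1, the selenoprotein methionine sulfoxide reductase of the cytosol and nucleus, had 80.2, 86.1 and 62.2 FPKM in BKO, against 45.2, 46.8 and 49.1 FPKM in Ctrl (difference 0.67, adjusted p = 0.165 by limma). Neither gene overlapped between the groups. Without BKO-3 Sepx1 passed, at an adjusted p of 0.0285 by limma with a difference of 0.81. Pdia6, a disulfide isomerase of the endoplasmic reticulum, had 60.3, 60.5 and 45.8 FPKM in BKO and 45.6, 40.3 and 39.4 FPKM in Ctrl. Txndc12, another thioredoxin-fold protein of that compartment, had 22.0, 24.1 and 21.1 FPKM in BKO and 25.0, 26.1 and 27.4 FPKM in Ctrl, the opposite direction. The glutaredoxins Glrx5 and Glrx3, the most abundant of the list, had 95.2 ± 9.27 and 66.9 ± 3.13 FPKM in BKO, against 83.8 ± 10.3 and 64.8 ± 0.296 FPKM in Ctrl (SD, n = 3 each).

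None of the 26 further NRF2 target and iron storage genes passed. At an unadjusted p below 0.05, 9 were higher and 0 lower (34.6% of those tested, background 6.63% higher and 3.52% lower). The median log2 difference was 0.13. This direction holds for the list as written. The 3 genes of the NADPH list with an antioxidant response element match (Me1, Pgd and G6pdx) were not counted here. Their differences were negative (-0.78, -0.19 and -0.15), with overlap between the groups for Pgd and G6pdx. Tkt and Taldo1 of the NADPH list, lower in every BKO library (-0.61 and -0.26), were not counted here either. Of the tested NADPH genes, 6 had a positive and 10 a negative difference. In the further NRF2 list, all BKO libraries were higher for 5 genes (19.2% of those tested, background 9.06%) and lower for 0 (background 6.82%). Slc40a1, ferroportin, the iron exporter of macrophages and other cells, had 19.7, 14.8 and 20.5 FPKM in BKO, against 9.11, 9.08 and 10.7 FPKM in Ctrl (log2 difference 0.86, SE 0.131, limma with Benjamini-Hochberg adjusted p = 0.0944). It passed without BKO-2, at an adjusted p of 0.0407 by limma and a difference of 0.99. Ugt1a6a, a glucuronosyltransferase, had 3.77, 5.56 and 2.33 FPKM in BKO and 1.70, 0.810 and 0.589 FPKM in Ctrl (difference 1.25, adjusted p = 0.236 by limma), and as it shares exons with its neighbours its reads may be split. Cbr3, a carbonyl reductase, had 2.66, 2.93 and 1.39 FPKM in BKO and 1.37, 1.29 and 1.10 FPKM in Ctrl. Akr1b8, an aldo-keto reductase, had 7.97, 6.87 and 5.56 FPKM in BKO and 4.42, 5.33 and 5.27 FPKM in Ctrl. Mt1, a metallothionein, had 499.8, 698 and 478 FPKM in BKO and 375, 336 and 470.3 FPKM in Ctrl. In Ugt1a6a, Cbr3, Akr1b8 and Mt1, as in Srxn1 and Hmox1, BKO-3 was the lowest of the BKO libraries; for Slc40a1 it was the highest.

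The ferritin subunits were the most abundant of that list. Fth1 had 2009, 1953 and 1746 FPKM in BKO and 1778, 1719 and 1744 FPKM in Ctrl, and Ftl1 had 575 ± 95.6 FPKM in BKO and 481 ± 53.6 FPKM in Ctrl (SD, n = 3 each). Both overlapped. The macrophage marker sums were higher in every BKO library than in any Ctrl library. The part of macrophages in the levels of this list was not tested.

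**Figure D5:**
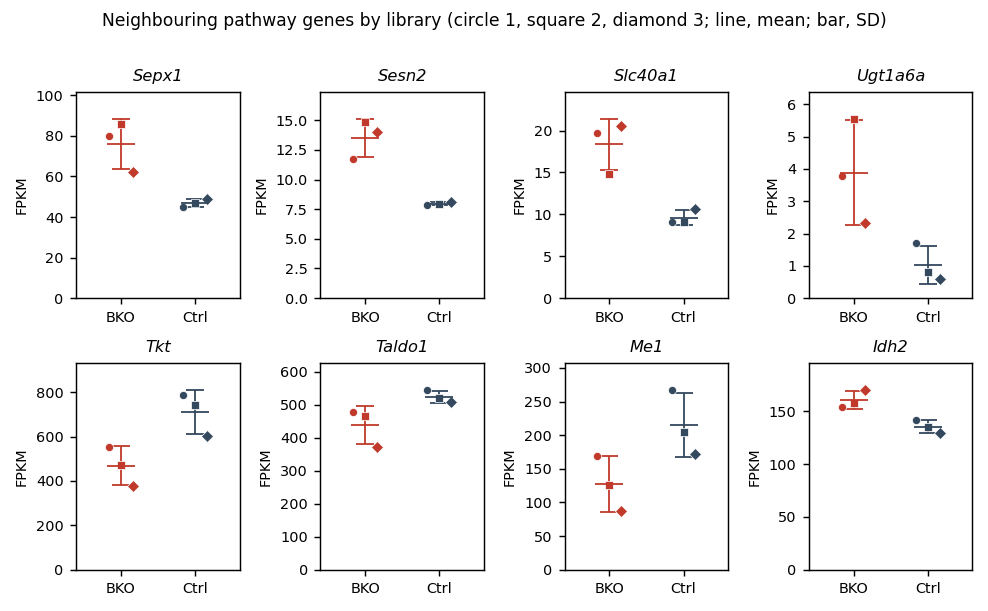
Panels show FPKM, on axes from 0, of 8 neighbouring pathway genes in the BKO libraries (left, red) and the Ctrl libraries (right, dark), with the mean and SD of 3 libraries. Sepx1, Sesn2, Slc40a1, Ugt1a6a and Idh2 are higher in every BKO library and Tkt, Taldo1 and Me1 lower, and none of the 8 passed the adjusted threshold.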

How the data were processed

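Tissue RNA was isolated with Trizol and sequenced from TruSeq libraries, per the labels' protocols. CASAVA 1.8, TopHat2 2.0.12, Cufflinks 2.2.1 and build NCBIM37 are named, per the submitters' processing notes, without options or annotation. The authors deposited 1 FPKM value per gene and library. These are normalized values, so a count test could not be applied.

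Columns were assigned by the sample descriptions, in which MT names Ctrl and WT names BKO libraries; the Bscl2 level was checked against this. The test used log2(FPKM + 1), which understates changes of low genes, for genes averaging 1 FPKM or more, in limma 3.58.1 under R 4.3.3 (intensity trend, no covariate, Benjamini-Hochberg at 0.05, fitted on the whole table). Ratios are of mean FPKM. All 50 symbols matched RefSeq.

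The gene group and lists were chosen with earlier results of these data known. Genes were named by family or regardless of their test, as the 2 most abundant of a role or list, or where groups did not overlap at an unadjusted p below 0.05; the other named genes and the AP-1 site were chosen after their values were seen. A planned search of proteins for selenocysteine was not run. The test was tried on simulated data with planted changes larger than most differences reported here and none in genes of low level. Recovery of small differences was therefore not tried. The 17 alternatives were other pseudocounts, filters, scalings and variance settings, weights, a block by replicate number, a muscle covariate, another threshold and leaving out each library.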

Additional observations from a re-analysis of the deposited data

How the results depend on the processing

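No antioxidant gene passed in 16 of the 17 alternatives; without BKO-3, 1 was called higher (Srxn1) and 0 lower. Of the 48 tested, 30 kept the sign of their difference in every alternative and 18 changed it in at least 1, none of them past the threshold. With 1 library left out, the median difference of the antioxidant genes ran from -0.005 to 0.08. The number with all BKO libraries higher then ran from 5 to 11 and all lower from 3 to 9. Full separation is easier to reach with fewer libraries in a group. The share over all tested genes was not taken for these fits, so their counts cannot be set beside the background given above. With a mean of at least 5 FPKM the number all higher was 3, since fewer genes were tested. Over all genes, 18 higher and 1 lower became 9 higher with that filter, 48 and 6 with library weights, 8 higher with the muscle covariate, 33 higher at a threshold of 0.1, and 5 to 30 higher and 1 to 3 lower with 1 library left out. The glutathione supply list, with 1 gene higher, had 0 with median ratio rescaling, quantile normalization, no trend or the muscle covariate, and 0 to 1 with 1 library left out. The NADPH list had 0 to 1 higher with 1 library left out. The glutaredoxin list had 2 higher with library weights, 1 at a threshold of 0.1 and 0 to 1 with 1 library left out, and a median of 0.056 to 0.15; the further NRF2 list had 1 with library weights, 1 at a threshold of 0.1 and 0 to 1. The cause of these shifts was not tested. With the replicate number as a block, 23 genes were higher and 2 lower, the antioxidant genes had 0 in either direction, and the glutathione supply list 0 higher. Deviations of same-numbered libraries correlated at 0.20, -0.10 and -0.10, and BKO-2 correlated best with Ctrl-3 (0.22). Deviations within a group of 3 libraries are tied to each other, so these weak values cannot decide whether the numbers pair the libraries. Scaling moved the median of all genes from 0.01 to between -0.02 and -0.01 on the log2 scale. Depth is unknown, and 3 libraries per group limit the precision.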
